A study of Mus musculus with 28 samples.

Results

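Brain macrophages of CReCOM mice aged 11–12 months were compared with those of CReCOM mice aged 5–6 months. Members were the 6 libraries whose labels give macrophage as cell type and CD11ccre Casp8flox/flox as genotype, 3 at each age (replicates 1, 3 and 4 at 11–12 months and replicates 3, 4 and 5 at 5–6 months), of 28 libraries in the series. Both ages carried homozygous floxed Casp8 alleles and Cre under the CD11c promoter, and all mice were female. The comparison asks which genes of sorted brain macrophages differ between the younger and the older mice of this lupus-prone strain. WT macrophages (Casp8flox/flox mice without Cre, 3 libraries at each age) and CReCOM microglia (4 libraries at each age) served to test whether the age differences themselves differed. The study treats each library as 1 mouse, so the spread between libraries of a group is taken as that between mice. It left out samples for behavior, perfusion, sorting or disease measures before deposit. Little RNA, a low read count, low alignment and many unmapped reads were further grounds. Macrophages were sorted as CD11b+CD64+CD45hi cells from perfused brains without meninges, after the mice had undergone behavioral testing. CD11c is active in dendritic cells and in several macrophage populations, so cells outside the brain may carry the deletion. The study describes loss of caspase-8 in the microglia of this model and not in its brain macrophages, so the sorted macrophages are not to be read as cells without caspase-8.

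Macrophages of the brain parenchyma that are CD45hi derive largely from blood monocytes, while microglia seed the brain before birth. Macrophages recognise nucleic acids through Toll-like receptors that signal by the adaptor MyD88, respond to type I interferon, present antigen on MHC class II and secrete the first component of complement, C1q. Caspase-8 relays death receptor signals and restrains necroptosis. Neutrophils are filled with granule proteins made in the bone marrow, such as the calprotectin subunits S100A8 and S100A9.

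Counts per library were 4194090 to 6570411 (median 6515323) at 11–12 months and 6309385 to 8344189 (median 6444945) at 5–6 months, with 11312 to 13028 and 11887 to 14128 genes detected. A count of 3, taken here as the floor of a level, was 0.457 to 0.715 CPM (counts scaled by the library total) in the older and 0.36 to 0.475 CPM in the younger libraries, and covers counting error only. Pearson correlations of log2(CPM+1) over genes were 0.635 to 0.742 among the older libraries, 0.758 to 0.811 among the younger, and 0.621 to 0.825 between ages. The 15 macrophage and gate genes were all present and summed to 22459.9 to 26152 CPM in the older and 23719 to 31545 CPM in the younger libraries (exact permutation test, two-sided p = 0.3). Lyz2, the lysozyme of myeloid cells, led them with 15702, 15851 and 13658 CPM at 11–12 months and 20216, 22517 and 14732 CPM at 5–6 months, so that myeloid transcripts were abundant in every library. Adgre1, the macrophage antigen F4/80, had 95.9, 139 and 2.38 CPM at 11–12 months and 80.2, 78.5 and 124 CPM at 5–6 months, with the older replicate 4 far below the rest. Fcgr1, which encodes the CD64 of the gate, had 83.3, 78.7 and 109 CPM at 11–12 months and 10.9, 81.1 and 69.1 CPM at 5–6 months, with replicate 3 of the younger mice below the other 5 libraries. In sorted bulk samples, fewer cells of a type and less RNA per cell cannot be told apart.

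Casp8 (ENSMUSG00000026029, GRCm38 chromosome 1, 58795374 to 58847503), the floxed gene, had 87.2, 77.8 and 17.6 CPM in the older and 47.9, 73.7 and 42.3 CPM in the younger CReCOM libraries. The groups overlapped, with both the highest and the lowest library at 11–12 months. Its log2 fold change with age was 0.17 (standard error 0.64), and the sign turned under 4 alternatives listed among the processing limits. Libraries read the 3′ end of each transcript, and the exons between the loxP sites are not given in the sources used here, so these values do not check the deletion. WT macrophages had 36.3, 64.3 and 44.9 CPM at 11–12 months and 71, 64.3 and 63.3 CPM at 5–6 months. Itgax, which encodes CD11c, had 108, 74.9 and 84.4 CPM in the older and 96.5, 98.9 and 147 CPM in the younger CReCOM libraries, and the ages overlapped. Myd88, the adaptor that the model's name refers to, had 196, 175 and 271 CPM in the older and 234, 334 and 278 CPM in the younger libraries, with a log2 fold change of −0.38 (standard error 0.35).

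No gene of 6272 tested passed an adjusted p under 0.1 with a fold over 1.5 between the ages of CReCOM macrophages by edgeR's quasi-likelihood test, 0.0% in either direction. The smallest adjusted p was 0.273 (Klra4). At an unadjusted p under 0.05 with the same fold, 68 genes (1.08%) had higher and 90 (1.43%) lower levels at 11–12 months. DESeq2 called 2 genes higher (0.0319%), 5330406M23Rik and C1qc, and 8 lower (0.128%), among them Ngp, Klra4, Klrg1, Mtmr2, Snora30, Prkab1 and Smg8. Without the older replicate 3, edgeR called 6 genes lower, Ngp, Klra4, Camp, Lrg1, Slc2a3 and S100a9. The median log2 fold change of all genes was 0.01, 50.6% lay above 0, and the median standard error was 0.73. The CPM of the ages did not overlap for 341 genes higher (5.44%) and 406 genes lower (6.47%) at 11–12 months. A gene was tested where the mean CPM of at least 1 of the 4 macrophage groups, as log2(CPM+1), was over 5, so members passing through their high group alone are among those counted. The groups of genes below are given by these counts and their medians, and fold changes are of the older over the younger mice.

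**Figure D1:**
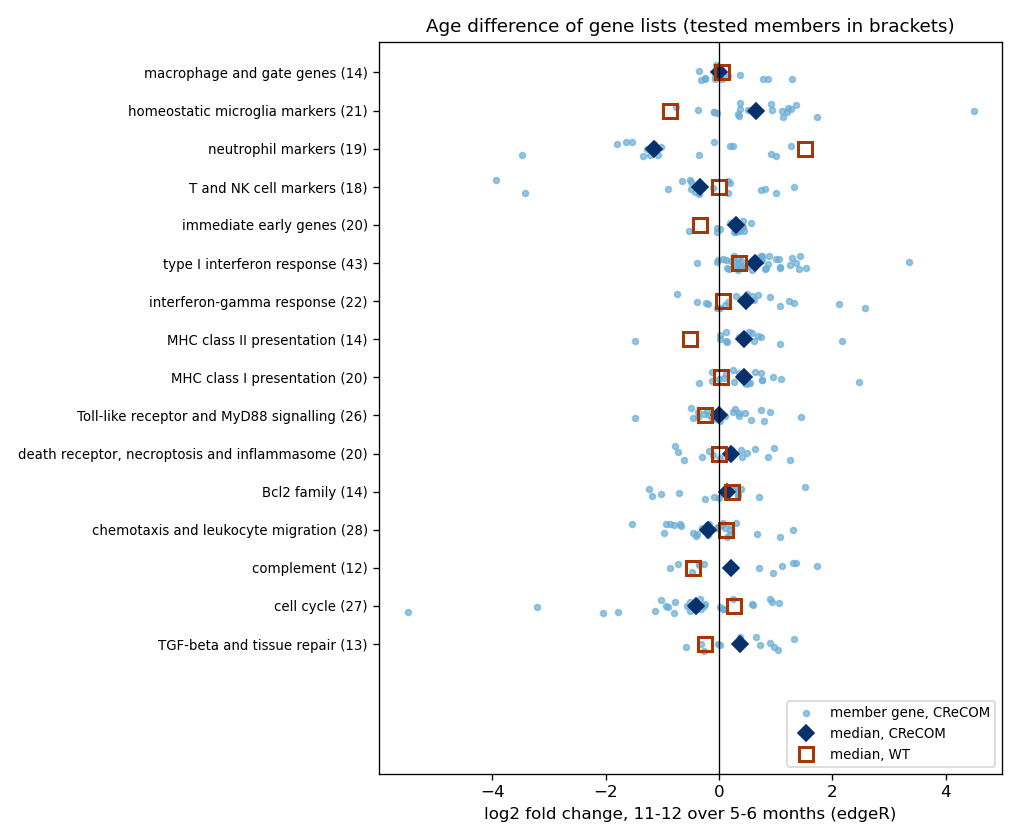
Log2 fold change of 11–12 over 5–6 months from edgeR (x axis) for the tested genes of 16 lists (rows, number of tested genes in brackets). Points are single genes in CReCOM macrophages, filled diamonds their median and open squares the median of the same genes in WT macrophages. The neutrophil list has its median at −1.16 in CReCOM and at 1.52 in WT, and the type I interferon list at 0.63 in CReCOM and at 0.36 in WT.

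Granule genes of neutrophils had lower levels in the older CReCOM macrophages and, of the lists examined, formed the group with the most members past the unadjusted threshold. Of 21 neutrophil markers, 19 were tested, 14 had a negative log2 fold change and the median was −1.16. Of the 19, 9 passed the unadjusted threshold as lower, against 1.43% of all genes, and 0 as higher: S100a8, S100a9, Ngp, Ltf, Lcn2, Camp, Mmp8, Wfdc21 and Cxcr2. Of the 19, 9 did not overlap between ages as lower and 1 as higher (G0s2), against 6.47% and 5.44% of all genes. Camp passed the threshold but overlapped, so these 9 are not the same genes. The summed level was 3629.8, 11033 and 5675 CPM at 11–12 months and 16463, 17082 and 12408 CPM at 5–6 months. All 3 older libraries lay below all 3 younger ones, with the older replicate 3 nearest to them (exact permutation test, two-sided p = 0.1, the smallest that 3 against 3 allows). The median ranged from −1.69 without the older replicate 3 to −0.68 without the younger replicate 4.

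S100a8, S100a9 and Ngp, which carried this pattern, and Klra4, whose age change differed between genotypes as given further on, are shown with the bases before their start sites. The table used has no entry for C1qa, and the window of Lcn2 lies inside the annotated gene and is not shown. The bases are RefSeq promoters of GRCm38.p6 on the strand of the gene, limited to positions before the annotated gene. Capitals mark matches to the C/EBP motif TTNNGNAA (reverse TTNCNNAA), a factor family of granulocyte genes, and to the PU.1 motif GAGGAAG (reverse CTTCCTC), a myeloid factor.
S100a8 (chr3:90668821-90668977, plus strand): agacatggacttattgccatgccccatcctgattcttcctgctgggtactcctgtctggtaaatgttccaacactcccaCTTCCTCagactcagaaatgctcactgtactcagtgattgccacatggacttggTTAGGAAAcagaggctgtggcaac
S100a9 (chr3:90695722-90695971, minus strand): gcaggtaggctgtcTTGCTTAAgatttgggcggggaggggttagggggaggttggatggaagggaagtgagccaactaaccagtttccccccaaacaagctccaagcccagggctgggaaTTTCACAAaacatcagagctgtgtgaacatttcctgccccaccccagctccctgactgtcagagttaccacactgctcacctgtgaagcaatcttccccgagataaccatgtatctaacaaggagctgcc
Ngp (chr9:110419558-110419746, plus strand): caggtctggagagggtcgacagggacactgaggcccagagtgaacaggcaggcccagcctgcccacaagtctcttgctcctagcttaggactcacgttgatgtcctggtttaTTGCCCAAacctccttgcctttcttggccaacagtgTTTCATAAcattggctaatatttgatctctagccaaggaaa
Klra4 (chr6:130067272-130067521, minus strand): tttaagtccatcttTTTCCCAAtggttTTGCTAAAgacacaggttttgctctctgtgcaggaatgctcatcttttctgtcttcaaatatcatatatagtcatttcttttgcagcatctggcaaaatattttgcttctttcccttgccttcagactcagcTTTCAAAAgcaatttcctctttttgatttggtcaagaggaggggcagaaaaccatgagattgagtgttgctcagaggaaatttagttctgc
The 157 bases of S100a8 held 1 C/EBP match and 1 PU.1 match, and 27.1% and 6.34% of 32851 promoters held these motifs in a window of that length. The 189 bases of Ngp held 2 C/EBP matches (31.1% of promoters at that length). The 250 bases of S100a9 held 2 and those of Klra4 3 C/EBP matches (36.8% of promoters at that length), and no PU.1 match (10.6% of promoters at that length). The window of Ngp had no PU.1 match either (7.65% of promoters at its length). All these shares count promoters with at least 1 match, so none is a background for 2 or 3 matches. The matches describe the letters and are not measured binding.

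S100a8 (ENSMUSG00000056054, chromosome 3, 90668978 to 90670035), a subunit of calprotectin, had 1233, 4014 and 2139 CPM at 11–12 months and 6064, 6364 and 4257 CPM at 5–6 months. Its mean was 2462 ± 1419 CPM (SD, n = 3) in the older and 5562 ± 1140.2 CPM (SD, n = 3) in the younger mice, 2.26-fold lower with age. The log2 fold change was −1.16 (standard error 0.35, unadjusted p = 0.00382 from edgeR). The ages did not overlap, but the older replicate 3 lay just below the younger replicate 5. S100a9 (chromosome 3, 90692632 to 90695721), the partner subunit, had 1095, 3244 and 1656 CPM in the older and 5082, 5317 and 3752 CPM in the younger libraries, 2.36-fold lower. Again replicate 3 was the highest of the older mice and replicate 5 the lowest of the younger.

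Ngp (ENSMUSG00000032484, chromosome 9, 110419747 to 110423012), neutrophilic granule protein, had 426, 1270.4 and 508 CPM at 11–12 months and 2027, 1849 and 1798 CPM at 5–6 months. The younger mice lay close together, and the log2 fold change was −1.35 (standard error 0.33, adjusted p = 0.831 from edgeR and 0.015 from DESeq2). Lcn2 (chromosome 2, 32384633 to 32388252), a siderophore-binding lipocalin, had 55.7, 159.9 and 69.6 CPM in the older and 342, 339 and 217 CPM in the younger libraries. Ltf (chromosome 9, 111019271 to 111042767), the iron-binding lactoferrin, had 79.3, 206 and 51.7 CPM in the older and 442, 493 and 251 CPM in the younger libraries, 3.52-fold lower. For both genes the older mice lay below the younger, and the log2 fold changes were −1.64 (standard error 0.46) and −1.79 (standard error 0.54).

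Camp, the cathelicidin precursor, had 229, 1163 and 392 CPM at 11–12 months and 1654, 1115 and 1245 CPM at 5–6 months, so that the older replicate 3 overlapped the younger mice. Mmp8, the neutrophil collagenase, had 127, 93.6 and 49.6 CPM in the older and 139, 362 and 128 CPM in the younger libraries. Cxcr2, a chemokine receptor of neutrophils, had 0.152, 5.99 and 0.477 CPM in the older and 6.83, 42.4 and 26.6 CPM in the younger libraries. The ages nearly touched for Mmp8 and Cxcr2, at the older replicate 1 and the younger replicate 5 and at the older replicate 3 and the younger replicate 3. Members with positive log2 fold changes were Elane (0.19) and Mpo (0.25), enzymes of early granules, and Csf3r (0.92), Il1r2 (1.01) and G0s2 (1.27). Ly6g, which marks mature neutrophils, was low in every CReCOM library. It had 2.74, 7.21 and 11.4 CPM in the older and 4.97, 20.4 and 2.85 CPM in the younger mice. In WT macrophages its log2 fold change with age was 3.31. Classical monocyte markers, some of which are shared with neutrophils, summed to 8572 to 12750.1 CPM in the older and 9196 to 12831 CPM in the younger libraries (exact permutation test, two-sided p = 0.8). Among 11 tested, 3 were above 0 with a median of −0.30. That median ranged from −0.41 without the older replicate 3 to 0.0078 without the younger replicate 4. As lower, 1 passed the unadjusted threshold, against 1.43% of all genes, and 0 as higher. In WT macrophages 8 of the 11 were above 0, with a median of 0.34. The part of neutrophil RNA in the lower levels was not tested.

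**Figure D2:**
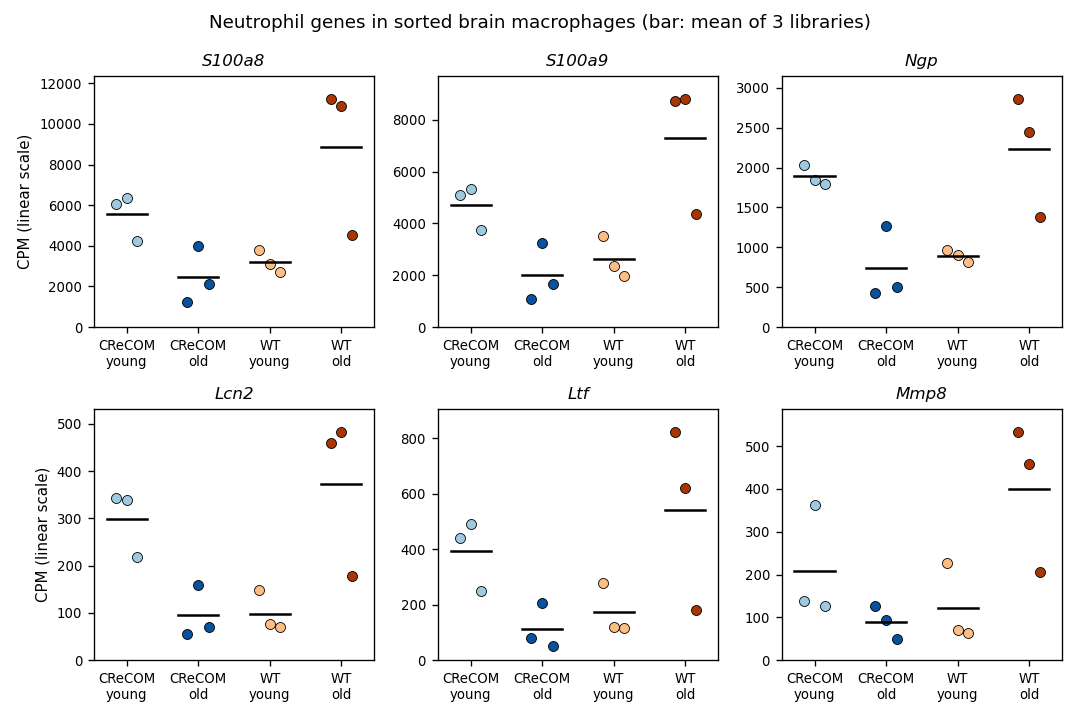
CPM (y axes, linear) of 6 granule genes in each macrophage library, with points for single mice and horizontal lines for group means (young is 5–6 and old 11–12 months), in CReCOM and WT mice at 5–6 and 11–12 months. For S100a8, S100a9, Ngp, Lcn2 and Ltf the 3 older CReCOM libraries sit below the 3 younger ones, and the older WT means are above the younger WT means.

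In WT macrophages the same markers went the other way with age. Their summed level was 30919, 28981 and 12625 CPM at 11–12 months and 11029, 8039.7 and 7289 CPM at 5–6 months, and the median log2 fold change was 1.52, with 18 of 19 genes above 0, against 50.4% of all genes in WT. Of the markers, 6 did not overlap between the WT ages as higher and 0 as lower, against 5.39% and 6.3% of all genes. Of all genes, 26.3% lay below 0 in CReCOM and above 0 in WT macrophages. The difference between the age changes of the genotypes was tested in a single fit of all 12 macrophage libraries. By edgeR at an adjusted p under 0.1, 5 genes had a lower age change in CReCOM (0.0797% of 6272) and 1 a higher (0.0159%). At the unadjusted threshold there were 158 (2.52%) and 131 (2.09%), and DESeq2 called 33 (0.526%) and 16 (0.255%).

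Of the 5 lower calls, 4 were neutrophil markers. S100a9 had a difference of −2.74 on the log2 scale (standard error 0.47, adjusted p = 0.0418 from edgeR), made of −1.22 in CReCOM and 1.52 in WT macrophages. Ngp differed by −2.70 (standard error 0.47, adjusted p = 0.0418), with −1.35 in CReCOM and 1.35 in WT. Lcn2 differed by −3.60 (standard error 0.65, adjusted p = 0.0434) and S100a8 by −2.65 (standard error 0.49, adjusted p = 0.0482), both from edgeR. S100a8 in WT macrophages had 11236, 10865 and 4516 CPM at 11–12 months and 3798, 3126 and 2737 CPM at 5–6 months, so WT replicate 7 was the nearest of the older to the younger mice. Over the 19 tested markers the difference had a median of −2.70, 2 were above 0 against 49.4% of all genes, 11 were lower at the unadjusted threshold against 2.52% of all genes, and 0 were higher. Each of the 4 calls was lost, at adjusted p up to 0.301, without CReCOM replicate 1 or 4 at 11–12 months, CReCOM replicate 3 or 4 at 5–6 months, WT replicate 2 or 4 at 11–12 months, or WT replicate 2 or 6 at 5–6 months, and those of Ngp and S100a8 also without WT replicate 1 at 5–6 months. Their differences kept a negative sign in all 12 fits that left out 1 library, between −4.19 and −2.29.

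**Figure D3:**
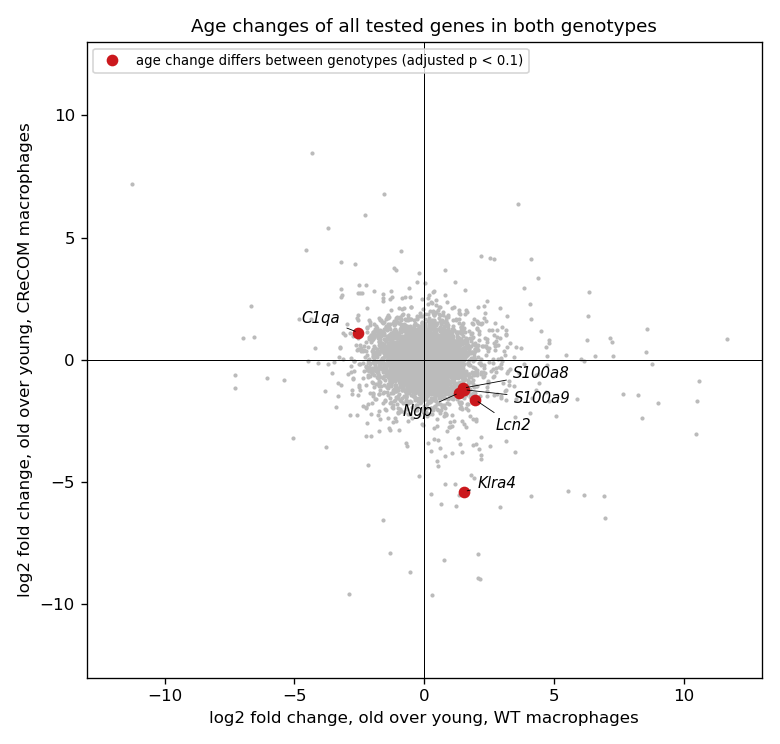
Log2 fold change of 11–12 over 5–6 months in WT (x axis) and in CReCOM macrophages (y axis) for the 6272 tested genes, with the 6 genes called in the test of the difference labelled. C1qa lies above 0 in CReCOM and below 0 in WT, and the 5 others lie below 0 in CReCOM and above 0 in WT.

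Genes of complement C1q had higher levels in the older CReCOM macrophages, where WT macrophages had lower ones. C1qa (ENSMUSG00000036887, chromosome 4, 136895917 to 136898803), 1 of the chains that form C1q, had 444, 435 and 378 CPM at 11–12 months and 160.0, 171 and 253 CPM at 5–6 months. All older libraries were above all younger ones, with means of 419 ± 35.3 and 195 ± 51.1 CPM (SD, n = 3 each) and a log2 fold change of 1.12 (standard error 0.38, unadjusted p = 0.00955 from edgeR). In WT macrophages C1qa had 42.2, 69.8 and 33.5 CPM in the older and 141, 310.2 and 400.0 CPM in the younger mice, and fell by 2.54 on the log2 scale (standard error 0.40, adjusted p = 0.0454 from edgeR). It was the 1 gene called between the WT ages (0.0159% lower, 0.0% higher), with 167 genes higher (2.66%) and 107 lower (1.71%) at the unadjusted threshold. The difference between the genotypes' age changes was 3.66 (standard error 0.55, adjusted p = 0.0257 from edgeR). That call was lost, at adjusted p up to 0.194, without CReCOM replicate 3 or 4 at 5–6 months, WT replicate 2 at 11–12 months, or WT replicate 2 or 6 at 5–6 months, and the difference stayed between 3.31 and 4.02 in the 12 fits.

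C1qc (chromosome 4, 136889804 to 136893065) had 922, 404 and 375 CPM in the older and 62.5, 203 and 254 CPM in the younger libraries, with replicate 1 highest of the older and replicate 3 lowest of the younger mice. Its log2 fold change was 1.72 (standard error 0.45, adjusted p = 1.00 from edgeR and 0.0675 from DESeq2). C1qb (chromosome 4, 136880129 to 136886187) had 297, 226 and 45.1 CPM at 11–12 months and 37.5, 100.1 and 85.3 CPM at 5–6 months, and the older replicate 4 overlapped the younger mice. Of 12 complement genes tested, 6 were above 0 and these 3 were the ones past the unadjusted threshold, against 1.08% of all genes. C3ar1, the receptor for the C3a fragment, had a log2 fold change of 1.30, and Cfp, which encodes properdin, one of −0.73 with 81, 92.7 and 36.7 CPM in the older against 132, 128 and 92.4 CPM in the younger libraries.

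C1q genes are also among the most abundant transcripts of microglia, with C1qa at 4880.2 to 9591 CPM in the 8 CReCOM microglia libraries. The 28 homeostatic microglia markers, which include the C1q genes, summed to 7472, 5451 and 4609.6 CPM in the older and 4091, 3745 and 4607 CPM in the younger CReCOM macrophages. The older libraries were all above the younger, by a small margin for replicate 4. Of 21 tested, 16 were above 0 with a median of 0.65 (from 0.35 without the older replicate 1 to 0.84 without the younger replicate 5), and the same genes in WT macrophages had 1 above 0 and a median of −0.86. P2ry12, a defining receptor of resting microglia, had 19.9, 23.9 and 83.5 CPM in the older and 10.2, 43.1 and 78.9 CPM in the younger libraries, and the ages overlapped. Tmem119, another defining marker, had 73.8, 27.3 and 40.8 CPM in the older and 21.7, 21.2 and 22.3 CPM in the younger libraries, which did not overlap. Siglech, a lectin of microglia, had 20.9, 2.3 and 63.7 CPM in the older and 0, 3.24 and 0.634 CPM in the younger libraries. The part of microglial RNA in the C1q levels was not tested.

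**Figure D4:**
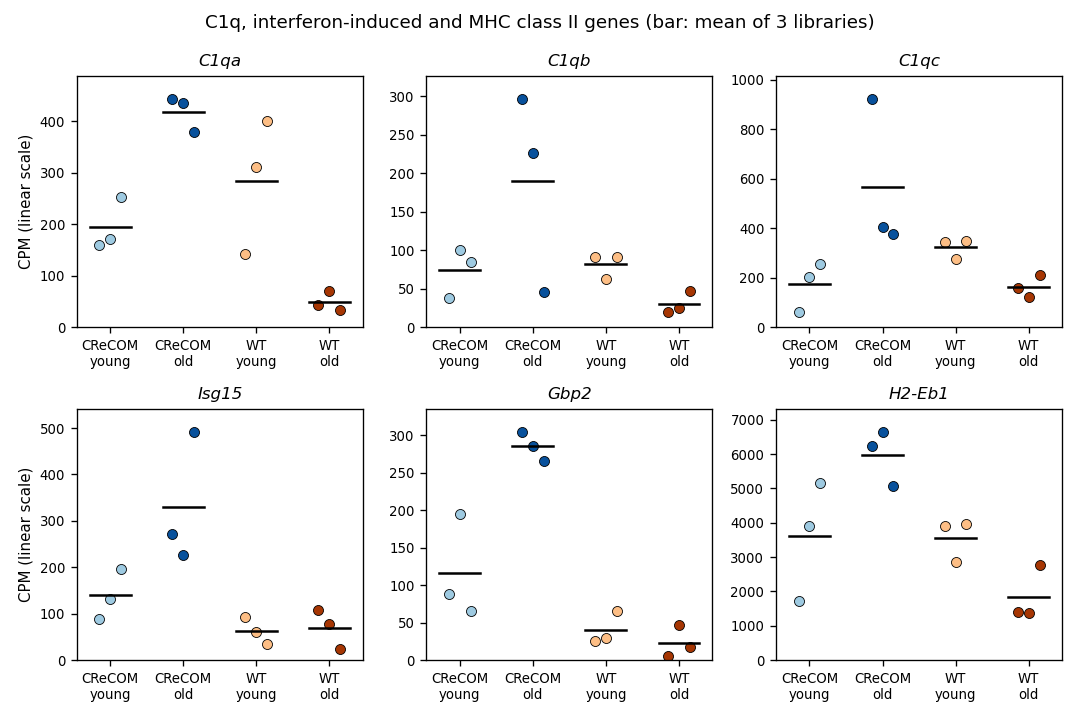
CPM (y axes, linear) of C1qa, C1qb, C1qc, Isg15, Gbp2 and H2-Eb1 in each macrophage library, with points for single mice and horizontal lines for group means. The 3 older CReCOM libraries are above the 3 younger ones for C1qa, C1qc, Isg15 and Gbp2, while for H2-Eb1 the younger replicate 5 lies within the older range.

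Type I interferon response genes had slightly higher levels at 11–12 months across most of the list. Of 43 genes tested of 50, 40 had a positive log2 fold change, against 50.6% of all genes, with a median of 0.63. Of these, 6 passed the unadjusted threshold as higher, against 1.08% of all genes, and 0 as lower, and 12 did not overlap between ages, all higher, against 5.44% of all genes. The summed level was 12374, 12145 and 12715 CPM in the older and 6759, 10328 and 10084 CPM in the younger libraries, so the older mice lay above the younger and closer together (exact permutation test, two-sided p = 0.1, the smallest possible). The median stayed between 0.38 without the younger replicate 3 and 0.70 without the younger replicate 4. In WT macrophages 30 of the 43 were above 0 with a median of 0.36. The difference between genotypes had a median of 0.25, with 1 gene higher and 0 lower at the unadjusted threshold, against 2.09% and 2.52% of all genes.

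Isg15 (chromosome 4, 156199424 to 156200818), the ubiquitin-like interferon-induced modifier, had 271, 226 and 492 CPM at 11–12 months and 89.2, 132 and 197 CPM at 5–6 months. The older replicate 4 was the highest library and the ages did not overlap, with a log2 fold change of 1.26 (standard error 0.52). Rtp4 (chromosome 16, 23520291 to 23614222), an interferon-induced chaperone, had 198, 175 and 236 CPM in the older and 30.7, 107 and 75.3 CPM in the younger libraries. Sp100 (chromosome 1, 85649988 to 85709998), a nuclear body protein, had 667, 656 and 980.2 CPM in the older and 302, 570.3 and 439 CPM in the younger libraries. Lgals3bp, a secreted galectin-binding protein, had 273, 238 and 336 CPM in the older and 108, 175 and 147 CPM in the younger libraries, 1.97-fold higher. For these 4 genes every older mouse was above every younger mouse. Bst2, the membrane protein tetherin, had 283, 307 and 310.4 CPM in the older and 158, 251 and 394 CPM in the younger libraries, and the ages overlapped.

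Responses to interferon-gamma and antigen presentation had the same sign. Of 22 interferon-gamma response genes tested, 17 were above 0 with a median of 0.47, and Gbp2 alone passed the unadjusted threshold, against 1.08% of all genes higher. The median ranged from 0.22 without the younger replicate 3 to 0.68 without the younger replicate 4. Gbp2 (chromosome 3, 142620602 to 142638008), a guanylate-binding protein, had 305, 286 and 266 CPM in the older and 88.8, 195 and 66.1 CPM in the younger libraries, and 5.25 to 65.1 CPM in WT macrophages. The older CReCOM mice were close together and above the younger, with a log2 fold change of 1.32 (standard error 0.62). Irf1, an interferon-induced transcription factor, had a log2 fold change of 0.48, and Ifngr2, a chain of the interferon-gamma receptor, of 0.91. Socs3, a feedback inhibitor of cytokine receptors, had 549.6, 376 and 926 CPM in the older and 466, 402 and 387 CPM in the younger libraries, and the ages overlapped. In WT macrophages 11 of the 22 genes were above 0, with a median of 0.07.

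Of 14 MHC class II genes tested, 13 were above 0 with a median of 0.44, and H2-Aa and H2-Eb1 passed the unadjusted threshold, against 1.08% of all genes higher. The median ranged from 0.21 without the younger replicate 3 to 0.60 without the younger replicate 4. H2-Eb1 (chromosome 17, 34305867 to 34316674), a class II beta chain, had 6224, 6647 and 5056 CPM in the older and 1733, 3914 and 5161 CPM in the younger libraries. H2-Aa (chromosome 17, 34282744 to 34287823), an alpha chain, had 3629.9, 4062 and 3491 CPM in the older and 1323, 2479 and 3559 CPM in the younger libraries. For both genes the younger replicate 5 reached the older range and the younger replicate 3 was the lowest. H2-Ab1 had a log2 fold change of 0.53 and Cd74, the invariant chain, of 0.58, while Ifi30, a lysosomal thiol reductase, had 0.01. Cd40, a co-stimulatory receptor, was the 1 tested member below 0, at −1.49. In WT macrophages 3 of the 14 were above 0 with a median of −0.51, and the difference between genotypes had a median of 0.99, with 4 members higher at the unadjusted threshold, against 2.09% of all genes.

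Of 20 MHC class I genes tested, 16 were above 0 with a median of 0.44. B2m (chromosome 2, 122147686 to 122153083), the light chain of class I molecules, had 4355, 4355 and 4659 CPM in the older and 3859, 2739 and 3150.1 CPM in the younger libraries, which did not overlap. Psmb8 (chromosome 17, 34197721 to 34201454), a subunit of the immunoproteasome, had 343, 416 and 323 CPM in the older and 193, 199 and 257 CPM in the younger libraries, which did not overlap either. The log2 fold changes were 0.47 (standard error 0.17) for B2m and 0.75 (standard error 0.32) for Psmb8. Tapbpl, a peptide editor of class I, had 114, 133 and 197 CPM in the older and 68.4, 50.3 and 91.1 CPM in the younger libraries, and H2-T22, a class I molecule with near-identical paralogs, had a log2 fold change of 0.76.

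**Figure D5:**
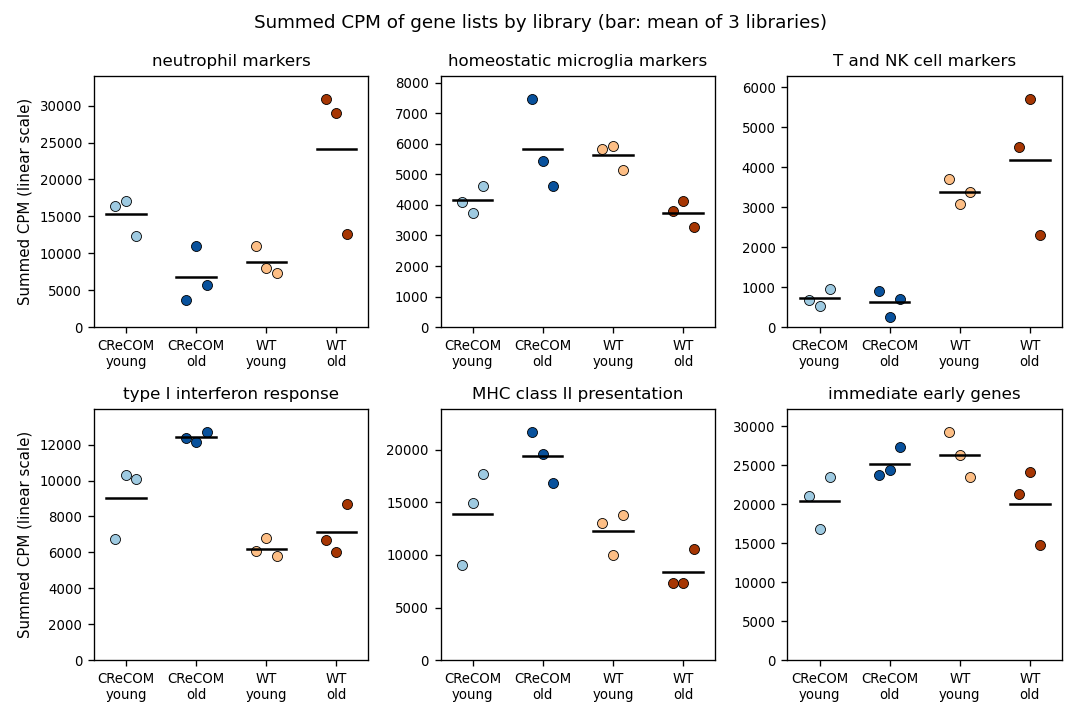
Summed CPM (y axes, linear) of 6 gene lists in each macrophage library, with points for single mice and horizontal lines for group means. In CReCOM mice the 3 older libraries are below the younger ones for neutrophil markers and above them for homeostatic microglia markers, type I interferon response and immediate early genes, and the ages overlap for T and NK cell markers and for MHC class II.

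Some receptors of natural killer (NK) cells, Klra4, Klrg1 and Ncr1, were near 0 in the older CReCOM macrophages, while others were not. Klra4 (ENSMUSG00000079852, chromosome 6, 130043731 to 130067271), which encodes the activating NK receptor Ly49D, had 0, 0.614 and 0 CPM at 11–12 months and 8.22, 10.3 and 12.5 CPM at 5–6 months. In WT macrophages it had 101, 131 and 269 CPM in the older and 27.4, 75.1 and 75.4 CPM in the younger mice. The age changes of the genotypes differed by −6.91 on the log2 scale (standard error 1.25, adjusted p = 0.0434 from edgeR). With older libraries at or near 0, this fitted value depends on the prior count and is no measured fold, and the call was lost in 10 of 12 fits that left out 1 library, all but those without CReCOM replicate 3 at 11–12 months or CReCOM replicate 5 at 5–6 months (adjusted p up to 0.198). Klra genes are near-identical, so reads may have been split among them. Klrg1, an inhibitory receptor of NK and T cells, had 0.609, 0.921 and 0 CPM in the older and 30.3, 3.12 and 23.8 CPM in the younger libraries.

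Over the 28 markers of T and NK cells the summed level was 893, 259 and 716 CPM in the older and 675, 539.5 and 941 CPM in the younger CReCOM macrophages, and the ages overlapped (exact permutation test, two-sided p = 0.7). Of 18 tested, 7 were above 0 with a median of −0.33 (from −0.90 without the older replicate 1 to −0.0085 without the older replicate 3), and Ncr1, Il2rb and Xcl1 passed the unadjusted threshold as lower, against 1.43% of all genes, and 0 as higher. Il2rb (chromosome 15, 78479256 to 78495271), a chain shared by the IL-2 and IL-15 receptors, had 29.4, 16.6 and 25.8 CPM in the older and 46.9, 43.9 and 45 CPM in the younger libraries, which did not overlap. Ncr1, the NK receptor NKp46, had 0, 1.07 and 0.954 CPM in the older and 8.53, 12.2 and 11.1 CPM in the younger libraries. Xcl1 had 0, 0.614 and 2.62 CPM in the older and 0.465, 16.9 and 16.5 CPM in the younger libraries, and the ages overlapped. Ncr1 and Xcl1 were low at both CReCOM ages and passed the filter for tested genes through the WT groups alone. The NK receptors Klrb1c, Klre1 and Klrd1 had log2 fold changes of 1.01, 0.81 and 0.20, and overlapped between ages. Gzma, the protease granzyme A, had 181, 45.1 and 150.2 CPM in the older and 146, 138 and 253 CPM in the younger libraries, and the ages overlapped. Cd3e, a defining chain of the T cell receptor complex, was at 0, 0 and 62.7 CPM in the older and at most 2.28 CPM in the younger libraries. In WT macrophages the 28 markers summed to 4507, 5708 and 2310 CPM in the older and 3712, 3076 and 3378 CPM in the younger mice. The CReCOM libraries of both ages thus lay below all WT libraries. The part of NK cell RNA in these levels was not tested.

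Genes of Toll-like receptor, death receptor and Bcl2 pathways were examined because the model's name refers to caspase-8 and MyD88. Of 26 Toll-like receptor and MyD88 genes tested, 13 were above 0 with a median of 0.01, and 0 passed the unadjusted threshold in either direction. Tlr7, the endosomal sensor of single-stranded RNA, had 65.1, 90.2 and 97.3 CPM in the older and 86.1, 56.2 and 57.7 CPM in the younger libraries, and the ages overlapped. Tlr4, the receptor for lipopolysaccharide, had 55.4, 50.3 and 30.8 CPM in the older and 0, 24.3 and 26.2 CPM in the younger libraries, which did not overlap, with a log2 fold change of 1.45 (standard error 1.96). Unc93b1, which carries Toll-like receptors to endosomes, had 607, 839 and 609.9 CPM in the older and 490.5, 554 and 357 CPM in the younger libraries. Irak2, a kinase downstream of MyD88, had a log2 fold change of 0.90, Tab2, an adaptor of the kinase TAK1, of 0.46, and Nfkb2, an NF-kappaB subunit, of −1.49. None of these passed the adjusted threshold by edgeR.

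Of 20 death receptor, necroptosis and inflammasome genes tested, 14 were above 0 with a median of 0.21 (0.10 without the older replicate 3), and 0 passed the unadjusted threshold. Gsdmd, the pore-forming protein of pyroptosis, had 224, 107 and 75.1 CPM in the older and 60.4, 100.3 and 65.1 CPM in the younger libraries, and Nlrp3, an inflammasome sensor, had 300.3, 546 and 391 CPM against 297, 293 and 359 CPM. Both overlapped between ages, as did Pycard, the inflammasome adaptor, at 92.8, 94.9 and 41.7 CPM against 121, 163 and 74.5 CPM. Apaf1, the scaffold of the apoptosome, had a log2 fold change of −0.78. Of 14 Bcl2 family genes tested, 7 were above 0 with a median of 0.14 (from −0.013 without the older replicate 1 to 0.24 without the older replicate 4), and 0 passed the unadjusted threshold. Mcl1, a survival factor of myeloid cells, had 1576, 1377 and 1463 CPM in the older and 1274, 1209.6 and 1142 CPM in the younger libraries, which did not overlap. Bcl2 itself, which blocks apoptosis, had 41.1, 60.2 and 29.1 CPM in the older and 121, 30.3 and 155 CPM in the younger libraries, with the younger replicate 4 inside the older range. Pmaip1, the pro-apoptotic Noxa, had a log2 fold change of 0.71, and Bid, a target of caspase-8, had 1.52, which rested on the older replicate 1 at 122 CPM and was −0.38 without it.

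Of 15 inflammatory cytokine and chemokine genes tested, 7 were above 0 with a median of −0.07 (from −0.25 without the younger replicate 3 to 0.48 without the younger replicate 5), and 0 passed the unadjusted threshold. Ccl6, a chemokine of myeloid cells, had 928, 1069.6 and 652 CPM in the older and 838, 1481 and 654 CPM in the younger libraries, and the ages overlapped.

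Genes of cell migration and the cell cycle had medians below 0. Of 28 chemotaxis and migration genes tested, 11 were above 0 with a median of −0.19. Itgb2 (chromosome 10, 77530252 to 77565708), the beta-2 integrin that pairs with CD11b and CD11c, had 912, 637 and 456 CPM in the older and 1557, 949.5 and 1459 CPM in the younger libraries. The ages did not overlap, with a log2 fold change of −0.97 (standard error 0.30, unadjusted p = 0.00453 from edgeR). Cd44, a hyaluronan receptor, had 937, 889 and 845 CPM in the older and 1304, 1140.4 and 1285 CPM in the younger libraries, 1.4-fold lower and without overlap. Cd44 had a like log2 fold change in WT macrophages, −0.48 against −0.47, with a difference of 0.02 (standard error 0.27). Itgb1 had a log2 fold change of −0.67 and Itgb7, which pairs with alpha-4 or alpha-E, of 1.07.

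Of 27 cell cycle genes tested, 9 were above 0 with a median of −0.41, while in WT macrophages 21 were above 0 with a median of 0.27. The CReCOM median ranged from −0.52 without the older replicate 3 to −0.18 without the younger replicate 5. Ccna2, the cyclin of S phase, had 0.457, 6.6 and 1.91 CPM in the older and 15.4, 40.3 and 29.8 CPM in the younger libraries, and Ube2c, a mitotic ubiquitin ligase partner, had 14.5, 36.2 and 26 CPM against 34.9, 80.9 and 43.4 CPM. Mki67, the proliferation antigen Ki-67, had the opposite sign, with 26.8, 113 and 123 CPM in the older and 29.6, 57.8 and 51.5 CPM in the younger libraries. Rrm2, a ribonucleotide reductase subunit, was the 1 member of 27 past the unadjusted threshold, as lower, against 1.43% of all genes. It had 1.37, 0.767 and 0 CPM in the older and 42, 61.1 and 0 CPM in the younger libraries.

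Of 13 TGF-beta and repair genes tested, 9 were above 0 with a median of 0.37, which ranged from 0.026 without the older replicate 4 to 0.68 without the younger replicate 5. Thbs1 (chromosome 2, 118111876 to 118127133), thrombospondin-1, which activates latent TGF-beta, had 349, 309 and 489.7 CPM in the older and 166, 191 and 264 CPM in the younger libraries. The ages did not overlap, with a log2 fold change of 0.90 (standard error 0.29, unadjusted p = 0.00646 from edgeR). Tgfbr2, a TGF-beta receptor, had 175, 112 and 31.7 CPM in the older and 52.8, 48.9 and 55.2 CPM in the younger libraries, with replicate 4 of the older mice lowest of all. Skil, a repressor of SMAD signalling, had a log2 fold change of 0.72 and Pros1, protein S, of 0.97.

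Of 20 immediate early genes tested, 17 were above 0 with a median of 0.31, and 5 did not overlap between ages, all higher (Fos, Fosb, Jun, Junb and Jund), against 5.44% of all genes. The median ranged from 0.16 without the younger replicate 4 to 0.41 without the younger replicate 5. None passed the unadjusted p with a fold over 1.5. Junb, a subunit of the transcription factor AP-1, had 4827, 5393 and 5683 CPM in the older and 3289, 3958 and 4614 CPM in the younger libraries. Jun had 1473, 1203 and 1541 CPM against 1129, 894 and 1164 CPM, and Jund 875, 1002 and 1245 CPM against 759, 838 and 559 CPM. In WT macrophages 1 of the 20 was above 0, with a median of −0.34, and the difference between genotypes had a median of 0.63, with 4 members higher at the unadjusted threshold, against 2.09% of all genes. Immediate early genes respond to tissue handling, whose part was not tested.

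Outside the lists, the genes with the smallest p among those higher in the older CReCOM macrophages were led by 5330406M23Rik (chromosome 6, 31108827 to 31110920), a transcript inside the locus of the non-coding RNA Lncpint. It had 97.1, 56.6 and 82.3 CPM in the older and 4.19, 17.1 and 5.07 CPM in the younger libraries, 8.94-fold higher and without overlap (adjusted p = 0.831 from edgeR and 0.0114 from DESeq2). WT macrophages had 70.7, 78.6 and 25.5 CPM in the older and 124, 42.9 and 51.3 CPM in the younger mice, so the younger CReCOM libraries were the low ones. Ap3b1 (chromosome 13, 94358960 to 94566317), a subunit of the AP-3 adaptor for lysosomal sorting, had 270.5, 223 and 426 CPM in the older and 73.7, 166 and 68.8 CPM in the younger libraries. Nr4a2 (chromosome 2, 57106830 to 57124003), a nuclear receptor, had 236, 248 and 215 CPM in the older and 108, 106 and 98.3 CPM in the younger libraries, 2.24-fold higher with little spread within each age. For these 3 genes, picked by their p in this same comparison, all older mice lay above all younger ones, as for 5.44% of all genes. Pura, a nucleic acid-binding protein, had a log2 fold change of 1.44 and Helz2, a transcriptional co-activator, of 1.15, while Gem, a small GTPase, was at 0, 21.6 and 36.5 CPM in the older and at most 0.719 CPM in the younger libraries.

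Genes of the smallest p that were lower in the older mice included several that were at the floor there. Mtmr2 (ENSMUSG00000031918, chromosome 9, 13748410 to 13806481), a phosphoinositide phosphatase, had 0.304, 0.307 and 0.715 CPM in the older and 37.5, 40.4 and 52.1 CPM in the younger libraries. WT macrophages had 8.98, 25.1 and 0.88 CPM in the older and 45.2, 28 and 33.8 CPM in the younger mice. Prkab1, a subunit of the energy sensor AMPK, had 0.761, 0.307 and 0.477 CPM in the older and 82.4, 12.5 and 10.3 CPM in the younger libraries. Snora30, a small nucleolar RNA, had 0 counts in all 3 older libraries and 17.4, 36 and 1.43 CPM in the younger, and lies within the gene Srcap, whose reads may have been counted with it. The younger mice also lay far apart for Prkab1, with replicate 3 high and the other two low.

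The age change of CReCOM macrophages was tested against that of CReCOM microglia over 5675 genes kept in both. By edgeR at an adjusted p under 0.1, 2 genes had a lower age change in macrophages (0.0352%) and 0 a higher (0.0%), with 110 (1.94%) and 135 (2.38%) at the unadjusted threshold and 9 (0.159%) and 10 (0.176%) by DESeq2. Mtmr2 in microglia had 96.7, 98.5, 108 and 79.9 CPM at 11–12 months and 47.9, 46, 61.8 and 87.7 CPM at 5–6 months, where macrophages went to the floor. Its age changes differed by −7.29 (standard error 1.00, adjusted p = 1.36e-04 from edgeR), a value that depends on the prior count. The call held in all 14 fits that left out 1 CReCOM library, and WT libraries were not left out here. Prkab1 differed by −5.79 (standard error 1.15, adjusted p = 0.0483 from edgeR), with 104, 20.3, 102 and 65.3 CPM in the older and 41.5, 99.1, 132 and 76.3 CPM in the younger microglia. That call was lost, at adjusted p up to 0.381, without macrophage replicate 3 or 4 at 11–12 months or replicate 3 at 5–6 months, or without microglia replicate 4 at 11–12 months or replicate 2, 3 or 5 at 5–6 months. Each of the 6 macrophage libraries shares its mouse number with a microglia library of the same age. With the mouse as a replicate block, the difference for Prkab1 was −4.75 and its call was lost (adjusted p = 0.815 from edgeR), and that for Mtmr2 was −7.37 and stayed called (adjusted p = 0.0425 from edgeR). Ages of microglia were taken from the titles, since the age field of the younger microglia gives the older age. C1qc had an age change of 1.75 more in macrophages than in microglia (standard error 0.43, adjusted p = 0.339 from edgeR).

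Hemoglobin and other red blood cell genes came from 1 mouse. Hbb-bs, a beta-globin, had 10689 CPM in the younger replicate 5 and at most 16.7 CPM in the 5 other CReCOM libraries, and the 6 red blood cell genes summed to 16157 CPM there and to 1.22 to 23.8 CPM elsewhere. Hbb and Hba genes have near-identical copies. The median log2 fold change of the 5 tested was −8.94, and 0.60 without that library. Without that library the median of the neutrophil list was −1.24 and that of the type I interferon list 0.70.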

How the data were processed

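RNA of sorted brain macrophages was sequenced from transcript 3′ ends (QuantSeq). Per the labels and the study's methods, the authors made reads with bcl2fastq, trimmed them with bbduk, aligned them to mm10 with STAR and counted genes with HTSeq. They deposited raw read counts per gene and CPM, the counts scaled by the library total. The strand setting of the counting and the annotation release are not given in the sources used here, so overlapping or antisense genes, such as Junb, B2m, Bid, Casp8 and 5330406M23Rik, cannot be told apart from their partners. Depth was 4045036 to 8344189 counts per macrophage library.

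Counts were fitted in R 4.3.3 with edgeR 4.0.16 (TMM, robust quasi-likelihood, group means of 12 macrophage libraries, or of all 28 for the comparison with microglia). Genes with log2(maximum group mean CPM + 1) over 5 (macrophages) or 4 (microglia) were kept. Calls required a Benjamini-Hochberg adjusted p under 0.1 and a fold over 1.5. The scripts were tested on simulated data. Alternatives were DESeq2 1.42.0, limma-trend (limma 3.58.1), other scalings and filters, the CReCOM libraries alone, a replicate block, and each macrophage library left out in turn. In the comparison with microglia only CReCOM libraries of both cell types were left out.

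Named genes were up to 12 in each direction of the age comparison that were called and did not overlap (filled by smallest p), up to 4 of smallest p in each list described, up to 6 of smallest p in each direction of the differences, the genes of the model (Casp8, Itgax, Myd88), and genes the study's text names for macrophages, which the study chose on these samples. Other genes are named as defining markers or list members. Members, lists and tests were chosen with earlier results of these data known. Same-numbered old and young libraries did not deviate together (residual correlations −0.0165 and −0.00617 over 2 pairs), so the numbers were not used as pairs. Exact permutation tests were two-sided. Promoter sequences are from RefSeq.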

Additional observations from a re-analysis of the deposited data

Results flagged for a closer look

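The results given here stood out because an age change differed between groups by a test of the difference itself, edgeR's contrast at an adjusted p under 0.1. Against WT macrophages, the age change on the log2 scale was 3.66 higher in CReCOM macrophages for C1qa, and differed by −2.74 for S100a9, −2.70 for Ngp, −3.60 for Lcn2, −6.91 for Klra4 and −2.65 for S100a8. Against CReCOM microglia, the age change in CReCOM macrophages differed by −7.29 for Mtmr2 and by −5.79 for Prkab1. Klra4, Mtmr2 and Prkab1 were at or near the floor in the older CReCOM macrophages, so the size of these differences depends on the prior count.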

How the results depend on the processing

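Between CReCOM ages, 0 genes were called higher and 0 lower by edgeR. DESeq2 called 2 and 8, no filter on low counts 1 and 5, edgeR's filterByExpr 0 and 1, and the unadjusted threshold 68 and 90. Leaving out 1 library gave 0 to 6 lower, with 6 without the older replicate 3. For CReCOM against WT, DESeq2 called 16 and 33, no filter 11 and 15, the unadjusted threshold 131 and 158, and leaving out 1 library 0 to 2 higher and 0 to 11 lower. Against microglia, DESeq2 called 10 and 9, the unadjusted threshold 135 and 110, and leaving out 1 CReCOM library 0 to 4 higher and 1 to 7 lower.

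A fit with a replicate block, or paired by number, called 1 gene higher (Ttr) and 0 lower between ages. For the genotypes it called 0 and 0 and, with the mouse as block, 0 and 1 (Mtmr2) against microglia. These fits left 2, 1 and 4 residual degrees of freedom to estimate the spread. Calls lost under them therefore cannot decide whether the calls of the main fits hold. Under the replicate block the sign of the age change turned for Hba-a2 (1.67), Cyp4f16 (−0.16), Alas2 (0.70), Hbb-bt (1.25), Hbb-bs (1.04), Bid (−0.41), Casp8 (−0.32) and Ifi30 (−0.22). It also turned for Casp8 under limma-trend (−0.10) and Ifi30 with library sizes alone (−0.0063). Among the macrophages only the younger CReCOM mice have a replicate 5. Under the replicate block that library has a term of its own and does not enter the estimated age change. Hba-a2, Hbb-bt, Hbb-bs and Cyp4f16 also turned without it. The cause of the other turns was not tested.

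Leaving out 1 library turned the sign of some age changes, whose ranges were −10.26 to 1.09 for Hba-a2, −9.78 to 0.60 for Hbb-bt, −9.48 to 0.52 for Hbb-bs and −0.15 to 0.73 for Cyp4f16 (each turned without the younger replicate 5), −0.38 to 2.05 for Bid (without the older replicate 1), −0.16 to 0.60 for Casp8 (without the older replicate 1 or 3), −0.36 to 0.25 for Ccl6 (without the older or the younger replicate 4), −0.091 to 0.59 for Bst2 (without the younger replicate 3) and −0.10 to 0.26 for Ifi30 (without the older replicate 1 or the younger replicate 3 or 5). The difference between genotypes for Ifi30 ranged from −0.57 to 0.053, and turned without the younger replicate 4.
With 3 mice a group and a median standard error of 0.73, small changes were not detectable.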

Other observations

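Genes of energy metabolism and protein turnover had medians close to 0 between the CReCOM ages. Of 63 nuclear oxidative phosphorylation genes tested, 26 were above 0 with a median of −0.06, and 2 passed the unadjusted threshold as lower, against 1.43% of all genes. Of 58 ribosomal protein genes, 36 were above 0 with a median of 0.13. Of 32 proteasome genes, 14 were above 0 with a median of −0.03, and of 34 lysosome genes 18 with a median of 0.03. Of 19 glycolysis and hypoxia genes, 6 were above 0 with a median of −0.12, and 2 passed the unadjusted threshold as lower.

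Of 22 disease-associated microglia genes tested, 16 were above 0 with a median of 0.12 in CReCOM macrophages, and 15 were above 0 with a median of 0.24 in WT macrophages. Of 8 NADPH oxidase genes, which make the oxidative burst, 3 were above 0 with a median of −0.12 in CReCOM and 7 with a median of 0.36 in WT macrophages. Dendritic cell markers summed to 313 to 504 CPM in the older and 258 to 407 CPM in the younger CReCOM libraries, and the ages overlapped. B and plasma cell markers summed to 169.9 to 283 CPM in the older and 174 to 642 CPM in the younger libraries, and these overlapped too.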
